A study of Homo sapiens with 5 samples.

Results

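The NOTCH pathway genes examined here are 10 human genes: the receptors NOTCH1, NOTCH2, NOTCH3 and NOTCH4, the ligands JAG1, JAG2 and DLL1, the target genes HES1 and HEY1, and the inhibitor NUMB. They were chosen by name, and their regions of open chromatin were read from a list of ATAC-seq hotspots of MCF10A cells. A hotspot was taken for a gene if it met any of 3 conditions. It lay within 1000 bp of a transcription start site (TSS) of the gene in GENCODE release 44 (a promoter hotspot), it overlapped the gene, or its nearest TSS of a protein-coding gene within 100 kb was that of the gene (an assigned hotspot). By this rule the 10 genes held 107 of 181723 hotspots. Of these, 15 were promoter hotspots, 47 overlapped a gene, 104 were assigned, and a hotspot could be all of these.

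MCF10A is an immortalized, non-tumorigenic line of human mammary epithelial cells, which was grown in medium with horse serum, EGF, hydrocortisone, cholera toxin and insulin. ATAC-seq uses the Tn5 transposase to insert adapters into accessible DNA. Libraries of 5 replicates were pooled by the authors before hotspots, which are regions of locally enriched reads, were called at a false discovery rate of 0.01. The list is therefore 1 sample with 1 score for each hotspot, so no value below has a replicate error, the depth is unknown, and no test was run.

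Scores are printed as deposited. The score had a median of 5.81 over all hotspots, and 10% of them scored above 16.1, which is called the top 10% below. Hotspots had a median width of 287 bp. Markers of the cells were read in the same way. For basal mammary epithelium 6 of 8 markers had a promoter hotspot, the median of the highest score over the 8 being 26.3, and KRT14 and TP63 had none. The corresponding counts were 1 of 4 for leukocytes (CD14, 16.5) and 3 of 3 for fibroblasts with a median of 7.87 (COL1A1 at 24.1). For endothelium the count was 3 of 3 with a median of 5.47. Of all protein-coding genes, 77.2% had a promoter hotspot, so 6 of 8 is close to the share of all genes.

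Notch receptors are transmembrane proteins that are activated by ligands of the Jagged and Delta families on a neighbouring cell. Ligand binding leads to cleavage by ADAM proteases and γ-secretase, and the intracellular domain that is released enters the nucleus and joins the DNA-binding protein RBPJ and a Mastermind coactivator. Genes of the HES and HEY families, which encode basic helix-loop-helix repressors, are the best known targets, and NUMB counteracts Notch at the membrane. In the mammary gland the pathway is known for its part in the choice between basal and luminal fates. An open region shows that Tn5 could reach the DNA and does not show that a gene is transcribed.

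The DNA just upstream of HES1 is shown first, because it lies in open chromatin and holds 2 copies of the core of the RBPJ site (TGGGAA). The 250 bp before the TSS, chr3:194135898-194136147 in hg38 on the forward strand, on which HES1 is transcribed, are printed 5′ to 3′ with the RBPJ cores in capitals.
HES1 promoter: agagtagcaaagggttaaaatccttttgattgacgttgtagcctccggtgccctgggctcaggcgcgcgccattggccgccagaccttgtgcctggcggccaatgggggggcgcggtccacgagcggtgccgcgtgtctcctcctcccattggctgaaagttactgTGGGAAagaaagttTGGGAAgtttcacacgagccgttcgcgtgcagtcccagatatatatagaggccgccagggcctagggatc
The cores lie on the same strand, 84 to 79 bp and 70 to 65 bp before the TSS. Among 35116 promoters of RefSeq (GRCh38.p14, 250 bp before to 50 bp after the start), 24.0% held at least 1 RBPJ core on either strand and 3.80% held at least 2. RefSeq entries matched 8 of the 10 genes, the exceptions being DLL1 and HEY1. Of the 8, only HES1 held a core in its window. Only exact matches of TGGGAA on either strand were searched, so other forms of the site are not marked. A match is a description of the letters and does not show that RBPJ was bound.

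AP-1 sites (TGAGTCA or, read on the other strand, TGACTCA), which are bound by FOS and JUN dimers, were found in 4 of the 6 hotspots of HES1 in the top 10%. They are shown because these 4 hotspots surround the gene, at 46.5, 44.9 and 1.4 kb upstream and 5.7 kb downstream of its TSS. Of all hotspots within 10% of the width of each of the 6, between 18.0% and 25.7% held such a site. Over all 18 hotspots of the 10 genes in the top 10%, 6 held one, these 4 among them. The mean share at the same widths was 21.5%. None of the 4 HES1 hotspots held an AP-1 site in its central 200 bp. The 81 bp centred on each site are chr3:194089754-194089834, chr3:194091378-194091458, chr3:194135299-194135379, chr3:194142065-194142145 in hg38 on the forward strand, with the site in capitals.
HES1 −46.5 kb: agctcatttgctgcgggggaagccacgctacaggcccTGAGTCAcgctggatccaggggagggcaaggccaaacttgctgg
HES1 −44.9 kb: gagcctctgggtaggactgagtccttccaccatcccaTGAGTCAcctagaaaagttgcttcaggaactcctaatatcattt
HES1 −1.4 kb: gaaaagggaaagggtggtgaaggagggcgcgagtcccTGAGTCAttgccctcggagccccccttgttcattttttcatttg
HES1 +5.7 kb: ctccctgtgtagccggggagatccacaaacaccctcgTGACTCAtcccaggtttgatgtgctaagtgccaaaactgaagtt

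Hotspots away from a promoter are represented by the central 200 bp of a hotspot in intron 2 of NOTCH3 and of the strongest hotspot upstream of JAG1. They are shown because each scored in the top 10% and no 75-base word of either hotspot occurs elsewhere in hg38. They lie at chr19:15195662-15195861 and chr20:10706028-10706227 in hg38, printed on the forward strand. Capitals mark a core of RBPJ, read on the reverse strand, in the first and a RUNX core (TGTGGT) in the second.
NOTCH3 +5.2 kb: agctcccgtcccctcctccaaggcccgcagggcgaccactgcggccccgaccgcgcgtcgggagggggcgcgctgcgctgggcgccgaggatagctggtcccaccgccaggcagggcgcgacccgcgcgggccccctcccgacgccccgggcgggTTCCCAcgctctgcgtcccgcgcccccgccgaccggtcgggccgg
JAG1 −32.1 kb: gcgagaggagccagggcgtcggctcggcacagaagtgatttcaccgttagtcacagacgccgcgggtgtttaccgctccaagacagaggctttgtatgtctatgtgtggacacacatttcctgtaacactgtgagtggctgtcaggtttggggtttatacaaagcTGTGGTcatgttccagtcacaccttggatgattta
The NOTCH3 sequence has a G and C content of 82.0% and the JAG1 sequence one of 51.5%.

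A further sequence is shown because its hotspot scored high over DNA that is present elsewhere in the genome. It is the central 200 bp of a hotspot upstream of NOTCH2, chr1:120090786-120090985, in hg38 on the forward strand. Capitals mark a RUNX core and then an RBPJ core, both on the reverse strand.
NOTCH2 −21.2 kb: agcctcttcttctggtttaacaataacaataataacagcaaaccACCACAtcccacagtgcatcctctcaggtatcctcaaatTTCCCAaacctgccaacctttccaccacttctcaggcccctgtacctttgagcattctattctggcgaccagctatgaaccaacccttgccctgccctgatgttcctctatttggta
All 75-base words (100%) of the whole hotspot occur at least once more in hg38, with a median of 3 places for each word.

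Open chromatin was found within 1000 bp of a TSS of all 10 genes, where 77.2% of 20007 protein-coding genes had such a hotspot. With TSSs of protein-coding transcripts alone, 9 of the 10 had one, the exception being NOTCH4, against 73.6% of all genes. The highest promoter score was in the top 10% for 8 of the 10, against 47.4% of all genes. With TSSs of protein-coding transcripts it was so for 7, NOTCH4 being no longer among them, against 45.7% of all genes. The median of this score over the 10 genes was 31.9, and over all genes, with genes without a promoter hotspot at 0, it was 15.0. Every one of the 10 had a hotspot inside it, as had 87.0% of all genes, and 9 had an assigned hotspot, as had 90.4% of all genes. The median number of assigned hotspots was 10 for the NOTCH pathway genes and 5 for all genes. The 10 genes also had more room for them. The median territory, the stretch in which a TSS of the gene is the nearest within 100 kb, was 132 kb against 55.5 kb. For each 100 kb of territory the medians were 10.9 and 7.99 assigned hotspots.

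**Figure D1:**
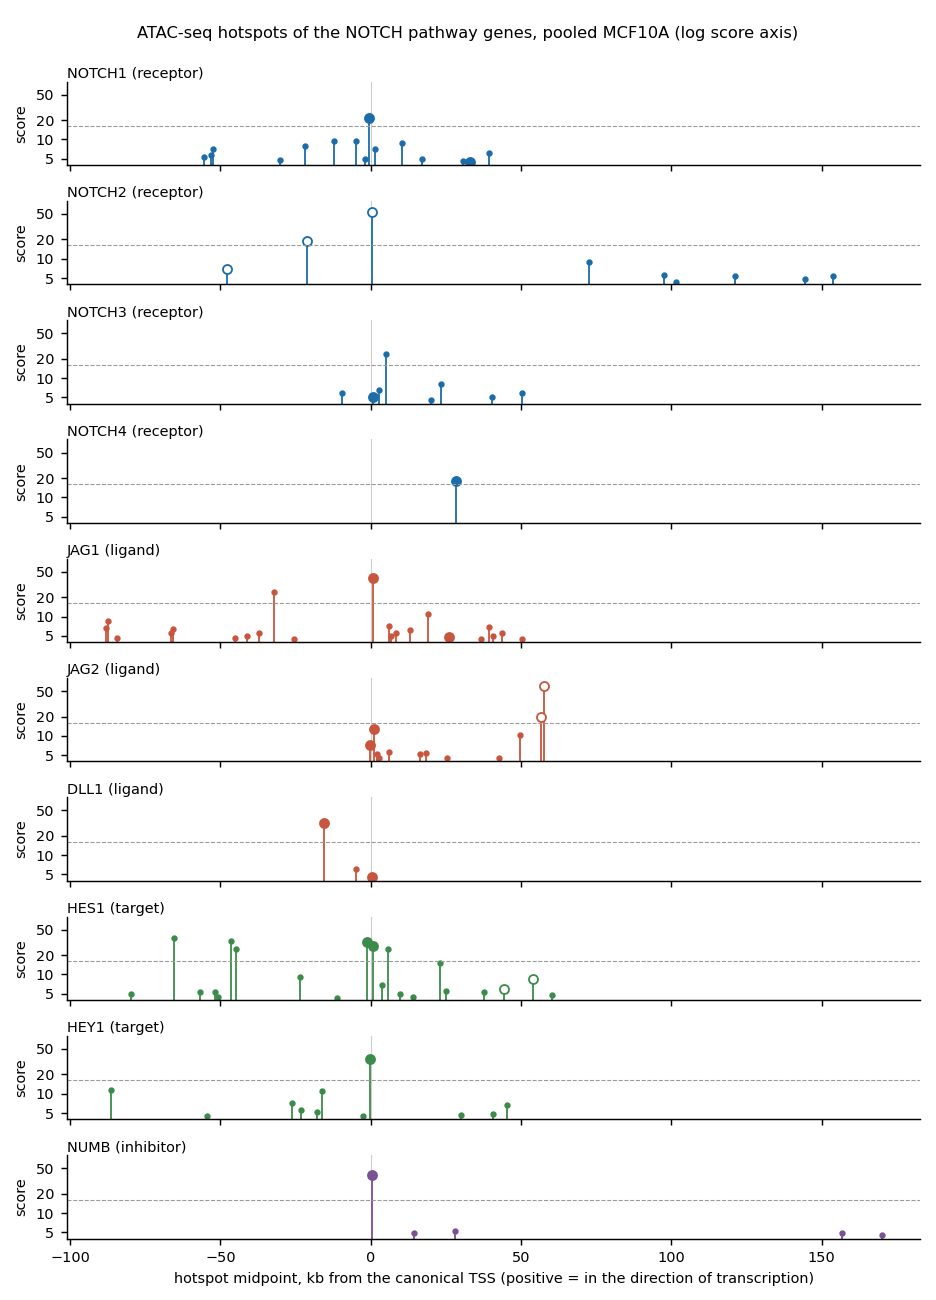
All 107 hotspots of the 10 NOTCH pathway genes by the distance of their midpoint from the canonical TSS (x axis, kb) and by score (y axis, log scale). Large filled points are promoter hotspots, open points are hotspots with more than 50% of their 75-base words elsewhere in the genome (the NOTCH2 promoter hotspot among them), and the dashed line marks the top 10%. HES1 has 6 points above the line, and NOTCH4 has a single point, at the far end of the gene.

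Of the 107 hotspots of the 10 genes, 56 (52.3%) scored below the median of all hotspots, a share close to that of the whole list. In the top 10% were 18 (16.8%), of which 9 were promoter hotspots and 9 were not. All 107 together had a median score of 5.61 and a median width of 325 bp. The 15 promoter hotspots had a median G and C content of 70.6%, above the 61.2% of promoter hotspots of all genes, and the other hotspots of the 10 genes had one of 52.7%, where all hotspots had 52.8%. The hotspots over the TSSs of JAG1, HES1, NOTCH1 and NUMB were wide, at 3711, 2459, 1762 and 1626 bp. Promoter hotspots of all genes had a median width of 550 bp. Of the 15 promoter hotspots, those narrower than this median were at NOTCH3 (262 bp), DLL1 (323 bp) and shorter transcripts of NOTCH1 (302 bp) and JAG1 (379 bp).

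**Figure D2:**
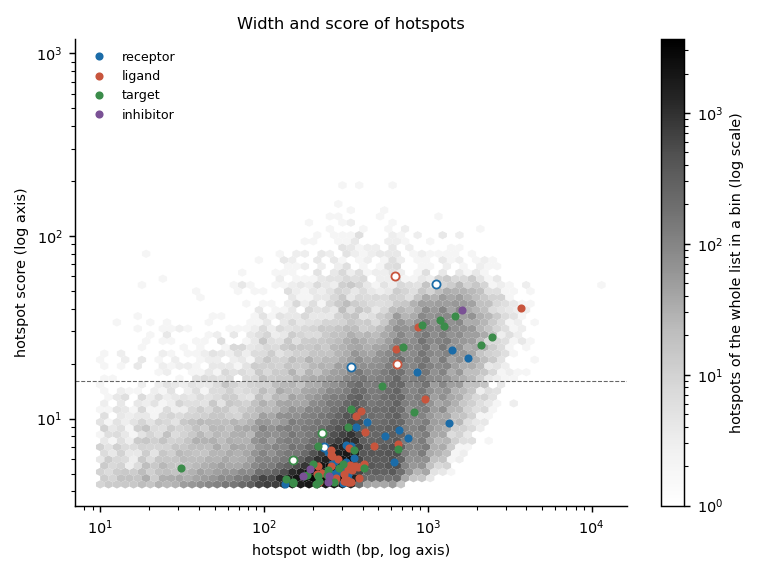
Width (x axis, bp, log scale) and score (y axis, log scale) of all hotspots (grey bins, darker with more hotspots) and of the hotspots of the NOTCH pathway genes (points coloured by role; open points have more than 50% of their 75-base words elsewhere). The ligand point farthest to the right is the JAG1 promoter hotspot, 3711 bp wide with a score of 40.2, and the highest open ligand point, at 60.2, lies downstream of JAG2.

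Among the receptors, the start of NOTCH2 had the highest score and that of NOTCH4 had no hotspot. NOTCH2, a receptor of many epithelia (chromosome 1, 119911553 to 120100779, reverse strand), had a promoter hotspot of 1123 bp with a score of 54.6, from 120068811 to 120069933, which covers coding exon 1. Of all genes, 99.2% had a lower highest promoter score. The gene has partial copies on the same chromosome, the NOTCH2NL genes, and 51.9% of the 75-base words of this hotspot occur elsewhere in the genome. Promoter hotspots of NOTCH2NLR, NOTCH2NLA and NOTCH2NLC had highest scores of 41.7, 60.5 and 61.5, and NOTCH2NLB had none. Of the 1049 words of the NOTCH2 hotspot, 29.7% occur in those hotspots. The alignment was run with the default reporting of Bowtie2 for reads with several matches, and no filter on mapping quality is given for the calls, so the NOTCH2 score cannot be told apart from reads of the copies.

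The gene is 189 kb long and overlapped 8 hotspots, or 0.423 per 10 kb, where the median of 1154 genes between 150 and 250 kb long was 0.573 and 31.0% had a lower density. Downstream of the first exon the 6 hotspots scored between 4.37 and 9.0, and the highest of them lay over coding exon 4, 72.5 kb from the TSS. Of the 75-base words of this highest hotspot, 19.4% occur elsewhere in the genome. The hotspot 21.2 kb upstream, whose centre is printed above, scored 19.3 and lies in an intron of a longer transcript. The next, 47.9 kb upstream, scored 6.98 and had 52.5% of its words elsewhere.

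NOTCH1, a receptor known for its activating mutations in T-cell leukaemia (chromosome 9, 136494433 to 136546048, reverse strand), had its strongest hotspot at the TSS. This hotspot spanned 1762 bp, from 136545767 to 136547528, and scored 21.4, above the highest promoter score of 63.6% of genes. It also covers the start of the microRNA gene MIR4674. A further promoter hotspot, with a score of 4.45, lay over coding exon 15 at the start of a shorter transcript. Upstream, 8 hotspots between 2.0 and 55.4 kb from the TSS were assigned to NOTCH1, and the highest scored 9.54 at 12.3 kb. The one nearest to the TSS scored 4.94 and lay 309 bp from a start of the non-coding gene NALT1. The widest of them, 1346 bp with a score of 9.43, lay 4.9 kb upstream, 1193 bp from a start of NALT1. Inside the gene the strongest hotspot after that at the TSS scored 8.67, in intron 2. NOTCH1 thus had 15 assigned hotspots, more than 87.4% of genes, and its promoter hotspot alone was in the top 10%. Within 5 kb on either side of its TSS, 3158 bases lay in hotspots, more than for 97.8% of genes.

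NOTCH3 differed from NOTCH1 and NOTCH2 in where its strongest hotspot lay. NOTCH3 is a receptor best known from vascular smooth muscle (chromosome 19, 15159038 to 15200995, reverse strand). Near its TSS it had only a weak hotspot, with a score of 4.98 and a width of 262 bp. The near edge of this hotspot was 640 bp from a TSS of NOTCH3, and its midpoint was 863 bp downstream of the canonical TSS. Of all genes, 26.8% had a lower highest promoter score. The strongest hotspot lay 5.2 kb into the gene, in intron 2, from 15195063 to 15196460, with a score of 23.8 and a width of 1398 bp. The nearest annotated TSS of any gene, also one of NOTCH3, was 4442 bp away. Its G and C content was 66.8%, and its ratio of observed to expected CpG was 0.622. The 300 bp around the NOTCH3 start had 78.3% G and C and a CpG ratio of 0.858, higher than 63.8% of genes. Between the TSS and intron 2 lay a hotspot in intron 1 with a score of 6.54. The other 5 hotspots of NOTCH3 scored between 4.62 and 7.99, and the highest of these lay over coding exon 24.

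NOTCH4, a receptor of endothelium (chromosome 6, 32194843 to 32224067, reverse strand), had no hotspot within 5 kb of its start. The only hotspot of the gene lay at its 3′ end, over coding exon 30, 28.2 kb from the TSS. It spanned 861 bp, from 32195426 to 32196286, scored 18.0, and covers the TSS of GPSM3, the neighbouring gene to which it was assigned. It counts as a promoter hotspot of NOTCH4 only because a transcript with a retained intron is annotated to start 691 bp from it. No hotspot was assigned to NOTCH4, as for 9.6% of genes, within the 99.8 kb nearest to its TSSs. The 300 bp around its start had a CpG ratio of 0.195, and 11.7% of genes had a lower ratio. At 31 hotspots per Mb, the 500 kb on either side of its TSS also held the fewest hotspots around any of the 10 genes, where the whole of chromosome 6 had 51.2 per Mb. Around the other genes this density ran from 66 at NOTCH2 to 162 at JAG2, with 113 at NOTCH1 and 136 at JAG1.

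**Figure D3:**
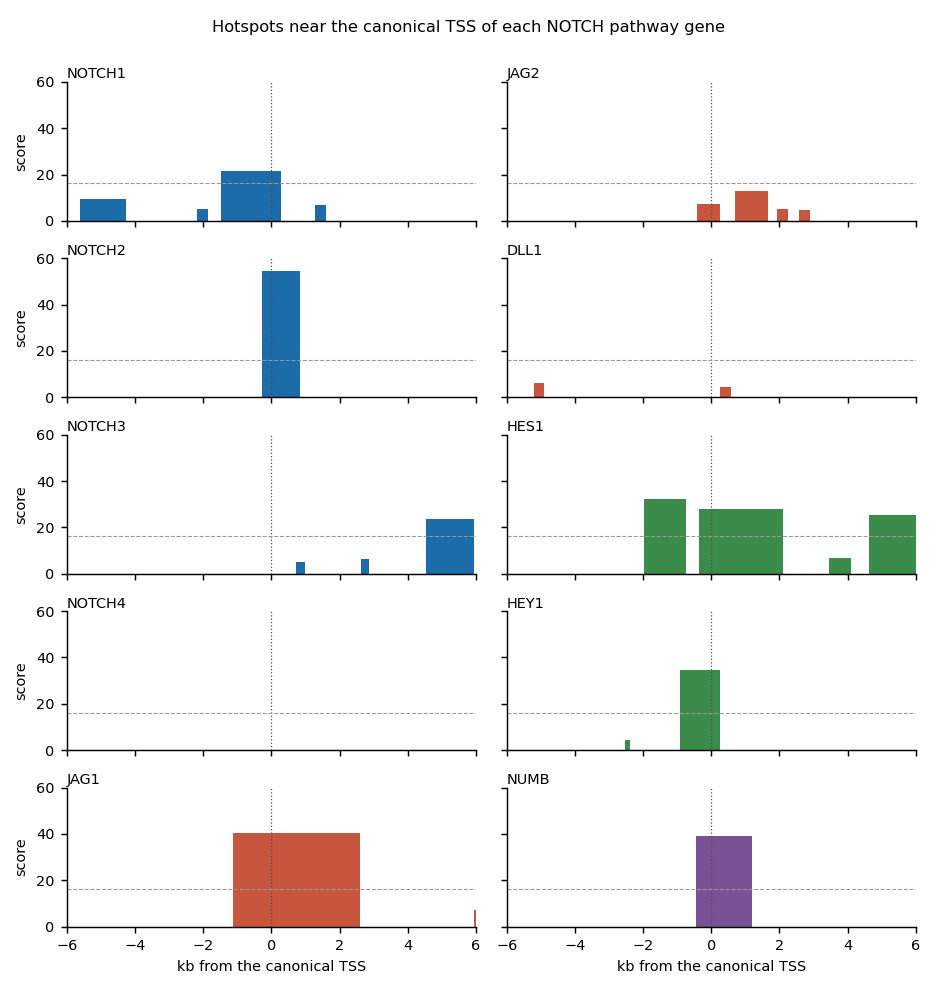
Hotspots within 6 kb of the canonical TSS of each NOTCH pathway gene (x axis, kb, positive in the direction of transcription). Each bar spans a hotspot and its height is the score, and the dashed line marks the top 10%. JAG1 has a single bar of 3711 bp, HES1 has 3 tall bars, NOTCH3 has its tall bar 5.2 kb into the gene, and NOTCH4 has none.

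Among the ligands, JAG1 had the widest open promoter. JAG1, a ligand expressed in many epithelia (chromosome 20, 10637684 to 10673999, reverse strand), had a promoter hotspot of 3711 bp with a score of 40.2, from 10671414 to 10675124, across the TSS and into intron 1. Of all 181723 hotspots only 65 were wider, and 92.8% of genes had a lower highest promoter score. A non-coding gene, ENSG00000270792, also starts within it. The other promoter hotspot, at the start of a shorter transcript in intron 13, scored 4.74. Inside the gene, 5 more hotspots scored between 4.98 and 11.0, and the strongest lay in intron 5, 19.2 kb from the TSS.

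JAG1 had 22 assigned hotspots, more than 94.7% of genes. The strongest outside the gene lay 32.1 kb upstream, from 10705809 to 10706446, with a score of 24.0 and a width of 638 bp, and its centre is printed above. It was 8860 bp from the nearest annotated TSS of any gene, that of the non-coding LINC01752. The other 9 hotspots upstream lay 25.4 to 88.1 kb from the TSS and scored between 4.49 and 8.49, and 5 hotspots downstream of the gene scored between 4.51 and 6.87. Chromosome 20 held 138 hotspots per Mb, where the genome held 58.8. Divided by this relative density, the 22 hotspots of JAG1 came to 9.35. In the same way the 8 assigned hotspots of NOTCH3, on chromosome 19 with 108 per Mb, came to 4.34. Why chromosomes 19 and 20 were dense was not tested.

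JAG2, the other Jagged ligand (chromosome 14, 105140982 to 105168824, reverse strand), had moderate scores at its start. A hotspot of 661 bp over the TSS scored 7.25, and a hotspot of 958 bp whose near edge was 701 bp into the gene scored 12.8. The latter is the highest promoter score of the gene, and 46.0% of genes had a lower one. The 6 other hotspots inside JAG2 scored between 4.47 and 5.56. With 8 hotspots in 27.8 kb the gene had 2.87 per 10 kb, more than 88.8% of genes. The strongest hotspot assigned to any of the 10 genes lay 57.6 kb downstream of the JAG2 start and outside the gene, with a score of 60.2. A neighbouring hotspot 56.7 kb downstream scored 19.9. They lay 12 bp and 489 bp from annotated starts of genes that are not protein-coding, so that they count as distal only with respect to protein-coding genes.

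Both of these hotspots lay over sequence with copies elsewhere. In the first, 95.9% of the 75-base words occur in other places, with a median of 180 places, and in the second 68.9% do, with a median of 9. Of 551 hotspots with a higher score than the first, 463 (84.0%) also had more than 50% of their words elsewhere, and of all hotspots in the top 10% 26.9% did. Of the 18 hotspots of the NOTCH pathway genes in the top 10%, 4 did: the pair downstream of JAG2, the NOTCH2 promoter and the hotspot 21.2 kb upstream of NOTCH2. The part of the copies in these scores was not tested. A distal hotspot in the top 10%, assigned and not within 1000 bp of a TSS of any protein-coding gene, was found for 5 of the 10 genes (NOTCH2, NOTCH3, JAG1, JAG2 and HES1), against 21.6% of all genes. Without hotspots of which more than 50% of the words lie elsewhere, the count was 3 of 10 (NOTCH3, JAG1 and HES1), against 13.0% of all genes. These shares of all genes were not matched for territory, whose median was larger for the 10 genes.

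DLL1, a Delta ligand (chromosome 6, 170282206 to 170306565, reverse strand), had its open promoter at an upstream start. The hotspot at the TSS of its longer transcript, 15.4 kb upstream of the canonical TSS, scored 31.6 over 875 bp, from 170306057 to 170306931, and 82.1% of genes had a lower highest promoter score. A hotspot of 323 bp near the canonical TSS scored 4.62. It did not reach that TSS, and its midpoint lay 422 bp downstream of it. A weak hotspot 5.0 kb upstream, scored 5.99. The last 2 were assigned to FAM120B, a neighbouring gene with a TSS inside the former and 662 bp from the latter. DLL1 therefore had 1 assigned hotspot, although 3 lay inside it. With canonical TSSs alone, it had 18.

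Among the target genes, HES1 had the most bases in hotspots within 5 kb of its TSS and the most assigned hotspots in the top 10% of the 10 genes. HES1, a repressor that Notch induces in many tissues (chromosome 3, 194136148 to 194138732, forward strand), is 2.58 kb long. A hotspot of 2459 bp with a score of 28.1, from 194135798 to 194138256, covers its TSS and most of the gene, including the RBPJ cores printed above. A hotspot of 1248 bp with a score of 32.3, from 194134163 to 194135410, ends 738 bp before the TSS and covers the start of the non-coding gene ENSG00000289385. Downstream, a hotspot of 2102 bp with a score of 25.3 lay 5.7 kb from the TSS, and between it and the gene was a hotspot of 6.84. Within 5 kb of the TSS, 4739 bases lay in hotspots, more than for 99.8% of genes, where the median was 952. JAG1, with 3711 bases, exceeded 99.0% of genes by the same measure.

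Farther upstream, 3 hotspots of HES1 in the top 10% lay 65.3, 46.5 and 44.9 kb from the TSS. The first, from 194070097 to 194071561, had the highest score assigned to the gene, 36.4, over 1465 bp, and covers a start of the non-coding gene LINC02028. The second, from 194089156 to 194090073, scored 32.7, and its nearest annotated TSS was 1488 bp away. The third, from 194090924 to 194091627, scored 24.6 and covers the start of ENSG00000229964. Downstream, a hotspot 23.0 kb from the TSS scored 15.0, just below the top 10%, and held 2 AP-1 sites. The other 13 hotspots scored between 4.36 and 8.97.

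In all, 21 hotspots were assigned to HES1, more than for 94.0% of genes, and 6 of them were in the top 10%, more than for 99.7% of genes. The territory of HES1, the stretch in which its TSS is the nearest within 100 kb, was 200 kb. Of 2429 genes with a territory between 150 and 250 kb, 19 (0.782%) had 6 or more assigned hotspots in the top 10%, and the median was 1. None of the 6 had a 75-base word elsewhere in the genome. For each 100 kb of territory HES1 had 10.5 hotspots, more than 63.6% of genes, and the median of all genes was 7.99.

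HEY1, a related repressor (chromosome 8, 79762371 to 79767857, reverse strand), had 1 strong hotspot. It spanned 1195 bp, from 79767504 to 79768698, across the TSS and upstream, and scored 34.6, above the highest promoter score of 86.6% of genes. A start of the non-coding LINC01607 also lies in it. The 10 other hotspots assigned to HEY1 scored between 4.48 and 11.3. The highest lay 86.3 kb upstream, and the next, 16.1 kb upstream with a score of 10.9 and a width of 824 bp, covers another start of LINC01607. With 6.15 hotspots for each 100 kb of territory, HEY1 was below the median of all genes.

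NUMB, which is best known for its unequal inheritance at cell division (chromosome 14, 73275107 to 73458617, reverse strand), had a strong promoter and little else. Its promoter hotspot spanned 1626 bp, from 73457360 to 73458985, and scored 39.1, above the highest promoter score of 91.8% of genes. The other 4 hotspots in its 184 kb scored between 4.52 and 5.29, all below the median of the list. The gene had 0.272 hotspots per 10 kb, and 15.9% of genes between 150 and 250 kb long had fewer. Of the 13 protein-coding and 6 other starts annotated for NUMB, those near this hotspot were the only ones within 1000 bp of a hotspot.

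Among the promoter hotspots farthest from a TSS were those 640 bp from a TSS of NOTCH3 and 691 bp from a TSS of NOTCH4. Others were 701 bp from a TSS of JAG2 and 738 bp from the TSS of HES1. The scores of these hotspots were, in this order, 4.98, 18.0, 12.8 and 32.3. Just outside the limit of 1000 bp were hotspots 1214 bp from a TSS of NOTCH1, 1216 bp from a TSS of NOTCH2, 1236 bp from a TSS of NUMB and 1259 bp from a TSS of NOTCH3, with scores of 7.06, 4.89, 4.52 and 4.62. With a limit of 2000 bp the 10 genes had 28 promoter hotspots in place of 15, and the highest promoter score changed at NOTCH3 alone, from 4.98 to 7.99.

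The other genes of the pathway were read from a list of 52 genes in 8 roles. Of these, 46 had a promoter hotspot and 34 had a highest promoter score in the top 10%, where 77.2% and 47.4% of all genes did. The median of the highest promoter score over the 52 was 20.8.

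In 4 roles every gene had a promoter hotspot. All 7 genes of the nuclear complex had a promoter hotspot, 6 of them in the top 10%, with a median of 33.4. The highest score was 46.2 at MAML1, a Mastermind coactivator, and RBPJ itself had 33.4. All 9 protease genes had one, 8 of them in the top 10%, with a median of 21.4 and the highest score, 39.9, at ADAM17, which can cleave the receptor outside the cell. The 6 corepressor genes all had one, 5 in the top 10%, and the highest was 44.2 at TLE1, a Groucho family corepressor. All 4 genes of ligand endocytosis had one, 3 in the top 10%, and the highest was 33.4 at MIB1, a ubiquitin ligase that acts on ligands.

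Genes without a promoter hotspot were found in the other 4 roles. Of 5 further ligand genes 3 had one, with a median of 6.60, the highest being 16.9 at DNER, and DLL3 and DLK1 had none. Of 8 further targets 6 had one, with a median of 13.0, the highest being 41.7 at HEY2, and HES5 and HEYL had none. Of 5 glycosyltransferase genes 4 had one, the highest being 28.1 at POFUT1, which adds fucose to Notch, and MFNG, a Fringe enzyme, had none. Of 8 genes of turnover and inhibition 7 had one, the highest being 44.2 at DTX2, a Deltex ubiquitin ligase, and DTX3 had none.

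**Figure D4:**
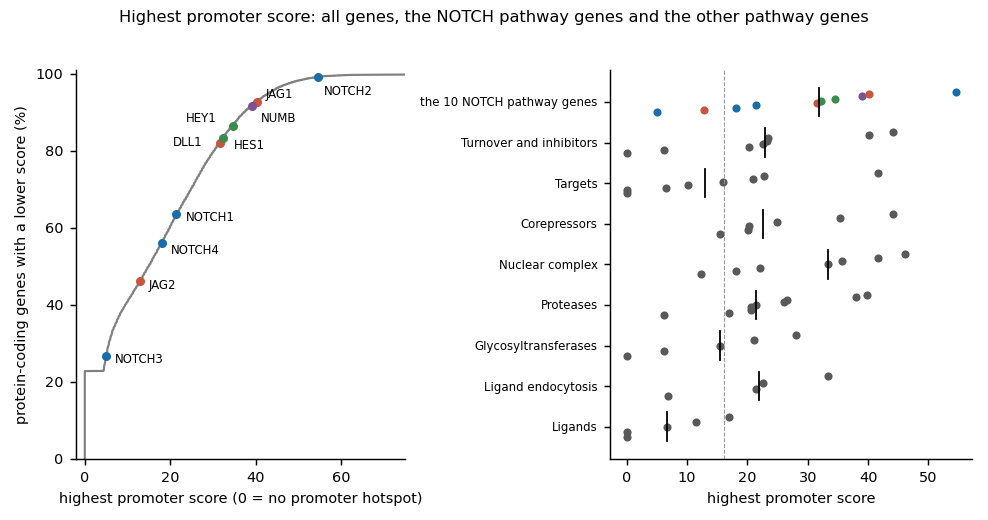
Left, the highest promoter score (x axis) of the 10 NOTCH pathway genes on the cumulative curve of 20007 protein-coding genes (y axis, percent of genes with a lower score). Right, the same score for the 52 other genes of the pathway by role and for the 10 genes at the top, with black bars for medians and a dashed line at the top 10%. NOTCH2 stands at 54.6 and NOTCH3 at 4.98, and the nuclear complex has a median of 33.4.

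Motifs were searched on both strands over the whole of each hotspot, and each count is set beside the mean share, over the same hotspots, of all hotspots within 10% of their width that hold the motif. RBPJ cores (TGGGAA) were in 41 of the 107 hotspots, where the mean share was 32.9%, and in 14 of the 18 in the top 10%, where it was 61.9%. Sites of HES and HEY proteins (CACGTG or CACGCG) were in 26 of 107 (mean share 14.4%) and in 8 of 18 (42.3%). AP-1 sites were in 21 of 107 (14.5%) and in 6 of 18 (21.5%). TEAD cores (CATTCC), which can overlap an RBPJ core, were in 30 of 107 (22.2%) and in 11 of 18 (41.7%). RUNX cores were in 22 of 107 (25.7%) and in 5 of 18 (39.2%). The consensus of CTCF was in 1 of 107 (1.71%) and in none of the 18. The share of hotspots with a motif moves with G and C content, which was not matched here.

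Motifs were also counted in the middle of the hotspots of the 10 genes. In the central 200 bp, AP-1 sites were in 12 of the 107 hotspots and in 0 of the 18 in the top 10%, where 8.66% of all hotspots held one. With so few hotspots, 0 of 18 is not set apart from this share. RBPJ cores were there in 26 of the 107 and in 4 of the 18, where 17.3% of all hotspots held one. The list gives no summit, so the middle of a wide hotspot need not be its most accessible base.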

How the data were processed

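ATAC-seq reads of 5 MCF10A replicates were mapped to hg38 with Bowtie2 by the authors, pooled and freed of duplicates, and hotspots were called with Hotspot (version 4.1 in the submitters' processing notes) at a false discovery rate of 0.01. Bowtie2 ran on read pairs with its default reporting, and Hotspot with a map of mappable positions and without satellite regions. Mitochondrial reads were dropped for the coverage track, and for the calls their removal, a Tn5 shift and a filter on mapping quality are not given in the sources used here. The deposited list holds a score for each hotspot, in the unit the authors' run wrote, and this score was not divided by depth or width. Hotspots over sequence with copies elsewhere, and the dense chromosome 20, bear on it.

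Starts of all transcripts of 20007 protein-coding genes (146260 TSSs, GENCODE 44) were used. Shares of genes with lower values describe this list and are not p-values. The members and lists were chosen with earlier results of these data known. The genes named are the 10 members, in each role the other gene with the highest promoter score and every gene without a promoter hotspot, and neighbours that share a hotspot. RBPJ, NOTCH2NL copies and non-coding genes at hotspots were named after their values were seen. The sequence of 1 hotspot is not reported here. Assignment, overlap and motif searches were tested on simulated data. Software was Python 3.11.15 with numpy 2.4.6, pandas 2.3.3, numba 0.67.0 and matplotlib 3.10.9.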

Additional observations from a re-analysis of the deposited data

How the results depend on the processing

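Counts of genes with a promoter hotspot varied between 8 (TSS windows of 500 bp) and 10 of 10. The median of their highest promoter score, 31.9, became 29.8 with windows of 500 bp and 26.8 with canonical TSSs alone. With windows of 2000 bp the promoter hotspots rose from 15 to 28, with 6 in place of 2 at NOTCH1, 3 in place of 1 at NOTCH3, and 4 in place of 2 at JAG1 and at JAG2. With 500 bp NOTCH3 and NOTCH4 had no promoter hotspot. With canonical TSSs the DLL1 score fell from 31.6 to 4.62, and with these or with TSSs of protein-coding transcripts, the latter chosen after seeing the data, NOTCH4 had none. Hotspots above the median score left 22 of 47 inside the genes and 49 of 104 assigned. A limit of 50 kb left 87 assigned, canonical TSSs 119, protein-coding transcripts 114 (38 of them at JAG1, where all transcripts gave 22) and division by chromosome density 95.2. Without mostly copied hotspots, a setting chosen after seeing the data, 3 of 10 genes in place of 5 had a distal hotspot in the top 10%. Of the other pathway genes, 46 had a promoter hotspot with 500 bp and 47 with 2000 bp. In the central 200 bp, RBPJ cores were found in 26 hotspots, AP-1 sites in 12, TEAD cores in 13 and HES/HEY sites in 9, since fewer bases were searched. RUNX and CTCF counts stayed within 1.5 times. Of 186 values for single genes or roles under an alternative, 138 were the same or, for counts, within 1.5 times, and 48 moved. A score was taken as moved at any change. No paired analysis was possible because the replicates were pooled before the calls, and for the same reason no replicate could be left out. Depth is unknown, so a gene without a hotspot was not shown to be closed.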
